A study of Mus musculus with 8 samples.

Results

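The genes of oxidative phosphorylation, nuclear and mitochondrial, were followed in cultures of mouse bone marrow stromal cells (BMSC) from Id1+/+ and Id1-/- mice. Members were taken by name, as the structural genes of the respiratory complexes and of ATP synthase with the assembly factors that share the Nduf prefix. The rule found 125 names among 55393 gene names, 102 of them in the MLL-AF9 table and 119 in the AE9a table, with 96 named in both. They comprised 45 names of complex I subunits, 8 complex I assembly factors, 4 genes of complex II, 10 of complex III, 21 of complex IV, 24 of ATP synthase and 13 encoded by mitochondrial DNA. Of the 125 names, 17 were annotated as pseudogenes or non-coding or had no match. The rule reads names alone.

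Oxidative phosphorylation is the last stage of respiration in the inner mitochondrial membrane. Complexes I and II pass electrons from NADH and succinate to ubiquinone, complex III hands them to cytochrome c, and complex IV to oxygen. Complexes I, III and IV pump protons on the way, and ATP synthase uses the returning protons to make ATP. Nuclear genes encode most subunits and all of complex II, and mitochondrial DNA encodes a few core subunits of the other complexes, so the complexes are built from both genomes. Stromal and haematopoietic cells of the marrow, which live at low oxygen, are known to shift between this route and glycolysis.

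The study grew cells from the marrow of Id1+/+ and Id1-/- mice that had received acute myeloid leukaemia 6 weeks earlier. The leukaemia was driven either by AE9a, a truncated AML1-ETO fusion, or by MLL-AF9, a fusion of the KMT2A methyltransferase. The Id1 protein pairs with basic helix-loop-helix factors and holds them off DNA. All groups came from leukaemia-bearing hosts, so no group shows cells without leukaemia, and cells were taken as adherent outgrowths of whole marrow and bone. The 4 groups were thus Id1+/+ and Id1-/- under MLL-AF9 and Id1+/+ and Id1-/- under AE9a, each labelled as 2 samples. The ages and sexes of the mice, and whether mice were pooled, were not given in the sources used here.

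RNA was counted per gene, with 17864812 to 22510346 counts in the 4 MLL-AF9 libraries. In the AE9a table, columns of the same genotype were offset from each other by a constant. For Id1+/+ the offset was 134 in 13678 of 13679 genes with 10 or more counts, and for Id1-/- it was 17 in all 14168 such genes, so each AE9a genotype was counted as 1 library of 20941863 or 18101804 counts. Id1 itself fell from 31.7 ± 4.07 to 11.8 ± 0.323 CPM (counts scaled to library size; mean ± SD, n = 2 libraries) in MLL-AF9, a log2 fold of -1.43, and was at 383 and 83 counts in AE9a. Reads on Id1 thus remained in the Id1-/- libraries, with 226 and 222 counts in MLL-AF9 against 706 and 632 in Id1+/+. The label of mesenchymal cells was set against markers. The 12 mesenchymal markers made up 0.0747% and 0.0837% of counts in MLL-AF9 Id1+/+ and 0.367% and 0.395% in Id1-/-, and 0.0278% and 0.124% in AE9a. The 12 macrophage markers made up 2.95% and 2.73%, then 2.63% and 2.55%, and in AE9a 3.39% and 2.97%. Macrophage markers thus outweighed mesenchymal ones in every library. In MLL-AF9 most of the mesenchymal rise lay in Col1a1 (3700 and 4936 counts in Id1+/+, 23715 and 25349 in Id1-/-) and Col1a2 (6320 and 7434, then 34083 and 34387). Cxcl12, of the same list, went from 1735 and 1590 counts to 629 and 602. The macrophage shares of the 2 MLL-AF9 Id1+/+ libraries were farther apart than those of Id1+/+ replicate 2 and Id1-/- replicate 1. In RNA from whole cultures, fewer cells of a type and less RNA per cell cannot be told apart. The labels number replicates without naming animals, so p-values measure the spread between libraries, which may be technical.

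Some promoters of these genes carry motifs that textbooks name for respiratory genes. Of members lower in MLL-AF9 Id1-/- cultures, 3 promoters are shown, each chosen because it holds a match. They run from 250 bases before the start site to 50 after it, on the gene's own strand, from RefSeq annotation of GRCm38.p6. Capitals mark the matched letters: GCGCATGC, bound by NRF1, upstream of Ndufa11 (chr17:56717512-56717811, plus strand, with 2 overlapping matches, 1 on each strand), CCGGAAG, bound by ETS factors such as GABP, in reverse upstream of Atp5e (chr2:174464052-174464351, minus strand), and AAGATGGC, bound by YY1, just after the start of Ndufs7 (chr10:80249199-80249498, plus strand).
Ndufa11: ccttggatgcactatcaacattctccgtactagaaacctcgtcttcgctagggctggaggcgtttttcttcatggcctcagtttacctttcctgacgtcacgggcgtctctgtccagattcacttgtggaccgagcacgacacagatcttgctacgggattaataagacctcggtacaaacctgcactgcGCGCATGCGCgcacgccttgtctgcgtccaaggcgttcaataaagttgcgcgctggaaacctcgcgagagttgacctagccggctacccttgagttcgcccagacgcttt
Atp5e: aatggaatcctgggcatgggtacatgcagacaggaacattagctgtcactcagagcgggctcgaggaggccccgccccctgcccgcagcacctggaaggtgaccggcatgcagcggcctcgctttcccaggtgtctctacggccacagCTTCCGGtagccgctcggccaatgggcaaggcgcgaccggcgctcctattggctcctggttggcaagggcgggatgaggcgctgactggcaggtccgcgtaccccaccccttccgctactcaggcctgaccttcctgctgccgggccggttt
Ndufs7: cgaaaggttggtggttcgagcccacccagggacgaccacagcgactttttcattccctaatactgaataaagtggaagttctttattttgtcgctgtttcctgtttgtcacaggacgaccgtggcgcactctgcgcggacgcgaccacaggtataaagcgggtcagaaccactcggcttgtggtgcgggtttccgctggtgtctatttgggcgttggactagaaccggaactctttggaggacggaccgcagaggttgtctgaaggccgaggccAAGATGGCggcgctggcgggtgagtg

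Promoter sequences were matched for 77 members. A gene with more than 1 promoter window was counted once, if any window held the letters. On either strand, GCGCATGC was found for 15.6% of these members against 3.05% of all 27025 genes with windows of the same length. CCGGAAG was found for 24.7% against 9.93%, and AAGATGGC for 14.3% against 3.19%. The estrogen-related receptor motif TCAAGGTCA was found for 2.60% against 0.466%, and the SP motif GGGCGG for 45.5% against 38.2%. Of the 11 promoters matched for members lower in MLL-AF9 Id1-/- cultures, 2 held the NRF1 letters, 3 the ETS letters and 2 the YY1 letters, shares close to those of all members. A match describes letters in this window and shows no binding.

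In MLL-AF9 cultures most nuclear genes of oxidative phosphorylation had a small negative fold in Id1-/- that did not pass the test, 14 were called lower, and 2 rare transcripts rose. Of 102 members listed, 98 passed the filter on low counts. Ndufs5-ps, Cox6a2, Cox7c-ps1 and Atp5l2-ps did not. The edgeR quasi-likelihood test called 14 members lower and 2 higher at a Benjamini-Hochberg adjusted p under 0.05, and 82 were not called. The background was 10.6% of all 14137 genes lower and 17.2% higher, so the share of members lower, 14.3%, was close to that of all genes. The log2 fold was negative in 85 of 98 members, with a median of -0.17 against 0.00 over all genes. Among the 9182 genes within the members' range of abundance the median was -0.02. Both Id1-/- libraries lay below both Id1+/+ libraries in 60 members, where 31.5% of all genes did so, and above them in 4, where 33.5% of all genes did so. For a member called on 2 libraries per genotype such separation is close to given. Where it is stated below for called members, it describes the values and adds no support to the call.

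The shift in the median was little larger than the gap between the wild-type libraries. Relative to the mean of the 4 libraries, the median member stood at 0.14 on the log2 scale in Id1+/+ replicate 1, at 0.01 in Id1+/+ replicate 2, at -0.06 in Id1-/- replicate 1 and at -0.10 in Id1-/- replicate 2. The 2 wild-type libraries were therefore farther apart than Id1+/+ replicate 2 and Id1-/- replicate 1. The number of members called lower varied widely with the library left out. Each such fit leaves 1 library in a genotype, and the calls over all genes in those runs are not given here. The swing is therefore not read as a trait of these members. Scaling to library totals in place of TMM (trimmed mean of M-values) factors gave 1 member lower and 3 higher, against 601 and 3134 of all genes, and moved the median of all genes to 0.11, from which the members' median stayed -0.17 away.

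**Figure D1:**
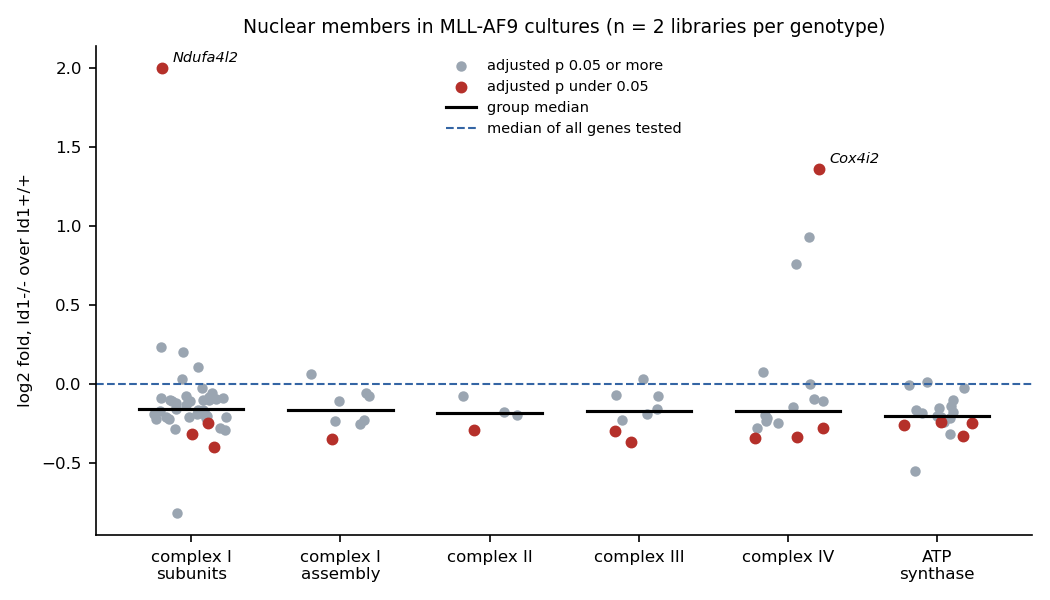
Log2 fold of Id1-/- over Id1+/+ for the 98 nuclear members tested in MLL-AF9 cultures (y axis), by complex (x axis, n = 2 libraries per genotype). Grey points were not called and red points had an adjusted p under 0.05. The black bars (group medians) lie between -0.15 and -0.20, below the dashed median of all genes, and Ndufa4l2 and Cox4i2 stand alone at the top, the latter at 1.36.

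Complex I, the NADH dehydrogenase, had 3 subunits lower and 1 higher among 43 tested, with a median log2 fold of -0.15. Ndufa11, a membrane-arm subunit that braces the complex, was at 37.7 and 36.5 CPM in the Id1+/+ libraries against 27.8 and 28.5 in Id1-/-. The genotypes did not overlap and the libraries of each lay close together (log2 -0.40, SE 0.10, edgeR adjusted p = 0.00613). It was the member with the smallest adjusted p among those lower, and its call was lost without Id1-/- replicate 1 (adjusted p = 0.0552 in edgeR, 0.000251 to 0.0552 over the alternatives). Of its exon bases 6.41% overlap exons of Vmac on the other strand, and the strand setting of the counting was not given in the sources used here. Ndufa6, an accessory subunit of the LYR family, was at 62.7 and 56.0 CPM in the Id1+/+ libraries against 51.0 and 44.2 in Id1-/- (log2 -0.32, SE 0.10, edgeR adjusted p = 0.0249). Ndufs7, which carries the last iron-sulfur cluster before ubiquinone, was at 87.3 and 84.3 against 71.3 and 73.3 CPM (log2 -0.25, SE 0.08, edgeR adjusted p = 0.0352). In both genes every Id1-/- library lay below every Id1+/+ library.

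The assembly factors of complex I followed with 1 of 8 lower and a median of -0.17. Ndufaf7, a methyltransferase that acts early in assembly, was at 29.99 and 27.1 CPM in the Id1+/+ libraries against 24.0 and 20.8 in Id1-/- (log2 -0.35, SE 0.11, edgeR adjusted p = 0.0300). Its groups did not overlap. The members nearest to no change in complex I included Ndufb1-ps (log2 -0.02), a name that RefSeq gives as Ndufb1, and Ndufc2 (0.03).

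The member with the strongest change was Ndufa4l2, a paralogue of Ndufa4 that low oxygen induces and that is known to restrain respiration. It had 14 and 17 counts in Id1+/+ and 49 and 63 in Id1-/-, or 0.686 and 0.776 against 2.51 and 3.41 CPM. Both Id1-/- libraries stood well above both Id1+/+ libraries (log2 2.003, SE 0.34, edgeR adjusted p = 0.00045), and it was the 1 member called under every setting tried. Its transcript was nonetheless rare, since per kilobase of exon it stood at 0.668 CPM in Id1+/+ and 2.70 in Id1-/- while Ndufa4 stood at 63.9 and 60.3. Ndufa4, which was named for complex I and works in complex IV, gave no call at a log2 fold of -0.08 (edgeR adjusted p = 0.624).

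Complex II, the succinate dehydrogenase that also serves the tricarboxylic acid cycle, had 1 of 4 genes lower and a median of -0.18. Sdhc, one of its membrane anchors, was at 161 and 134 CPM in the Id1+/+ libraries against 123 and 118 in Id1-/- (log2 -0.29, SE 0.09, edgeR adjusted p = 0.0261). The gap between the 2 Id1+/+ libraries exceeded that between Id1+/+ replicate 2 and either Id1-/- library. The flavoprotein Sdha was at 235 and 251 against 229 and 233 CPM (log2 -0.07), the iron-sulfur subunit Sdhb at 120 and 114 against 105 and 102 (log2 -0.17), and the second anchor Sdhd at 142 and 110 against 114 and 105 (log2 -0.20). Their edgeR adjusted p were 0.532, 0.123 and 0.177, and the libraries overlapped between genotypes in Sdhd.

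In complex III, the cytochrome bc1 complex, 2 of 8 members were lower and the median was -0.17. Uqcrb, a small subunit near the ubiquinone site, was at 96.5 and 78.9 CPM in the Id1+/+ libraries against 69.2 and 66.6 in Id1-/- (log2 -0.37, SE 0.10, edgeR adjusted p = 0.0106). Uqcrfs1, the Rieske iron-sulfur protein that passes electrons on to cytochrome c1, was at 97.97 and 76.8 against 74.7 and 67.3 CPM (log2 -0.30, SE 0.11, edgeR adjusted p = 0.0484). In both genes Id1+/+ replicate 1 stood well above the other libraries, and in Uqcrfs1 the lower Id1+/+ library nearly met the higher Id1-/- library. A processed pseudogene on chromosome 1, Gm2962, matches 336 bases of the Uqcrb transcript at 98.2% identity, so reads may be split between them.

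Complex IV, cytochrome c oxidase, had 3 of 16 members lower and 1 higher, with a median of -0.17. Cox7a2 was at 83.2 and 74.6 CPM in the Id1+/+ libraries against 65.6 and 59.2 in Id1-/- (log2 -0.34, SE 0.09, edgeR adjusted p = 0.0120). Cox6b1, which faces the intermembrane space, was at 196 and 165 against 152 and 134 CPM (log2 -0.33, SE 0.09, edgeR adjusted p = 0.0151). Cox6c was at 143 and 117 against 106 and 108 CPM (log2 -0.28, SE 0.09, edgeR adjusted p = 0.0391). All of them encode small nuclear subunits around the mitochondrially encoded core, and in each the genotypes did not overlap.

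Several complex IV subunits come as tissue isoforms, and the ubiquitous form was the more abundant in each pair, per kilobase of exon. Cox4i1 stood at 261 CPM per kilobase in Id1+/+ and 236 in Id1-/-, and Cox4i2, the isoform induced by low oxygen and known from lung, at 0.752 and 1.95. Cox4i2 had 13 and 12 counts in Id1+/+ and 25 and 33 in Id1-/-, or 0.637 and 0.548 against 1.28 and 1.79 CPM. The groups did not overlap (log2 1.36, SE 0.42, edgeR adjusted p = 0.0235), yet the call was lost with DESeq2 (adjusted p = 0.141) and without any 1 of Id1+/+ replicate 1, Id1+/+ replicate 2, Id1-/- replicate 1 or Id1-/- replicate 2 (edgeR adjusted p of 0.0568 to 0.215). For the ubiquitous Cox4i1 the log2 fold was -0.15, with no call.

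Cox4i2 is a neighbour of the deleted gene. On chromosome 2 of GRCm38, Id1 spans 152736251 to 152737410 and Cox4i2 152754173 to 152765037 on the same strand, 16762 bases apart with 0 coding genes between. Within 200000 bases of Id1, Bcl2l1 (log2 -0.56) and H13 (-0.26) were lower and Tpx2 (0.72) was higher, while Rem1, Mcts2, Mylk2 and Foxs1 were not called. The part of the altered locus in the Cox4i2 change was not tested.

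Among the remaining isoforms, the muscle and testis forms were scarce. Cox6a1 stood at 424 and 393 CPM per kilobase in Id1+/+ and Id1-/-, and Cox6a2 at counts too low to test. Cox6b2, known from testis, stood at 0.445 and 0.767 beside 255 and 202 for Cox6b1. The heart and muscle form Cox7a1 stood at 5.90 and 5.94 CPM per kilobase (log2 fold 0.00, not called), beside 83.6 and 66.1 for Cox7a2 and 101 and 85.4 for Cox7a2l, which tethers complex III to complex IV. Cox7a2l and Cox8a had log2 folds of -0.25 and -0.22, with edgeR adjusted p of 0.0754 and 0.0526. Cox7b was at 116 and 91.9 CPM against 92.1 and 79.5, with overlapping genotypes and no call (log2 -0.28, edgeR adjusted p = 0.0648).

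ATP synthase had 4 of 19 members lower and the lowest group median, -0.20. Atp5e, the epsilon subunit of the F1 head, was at 191 and 162 CPM in the Id1+/+ libraries against 142 and 139 in Id1-/- (log2 -0.33, SE 0.09, edgeR adjusted p = 0.0113). Atp5h, a subunit of the peripheral stalk, was at 129 and 119 against 109 and 102 CPM (log2 -0.24, SE 0.08, edgeR adjusted p = 0.0426). Atp5j2, in the membrane part, was at 156 and 131 against 122 and 119 CPM (log2 -0.26, SE 0.09, edgeR adjusted p = 0.0452). The 4th was Atp5g1, which encodes the c ring (log2 -0.25, edgeR adjusted p = 0.0460). In all 4 the genotypes did not overlap. The catalytic beta subunit Atp5b, named after its values were seen as a contrast to these small subunits, was at 807 and 785 CPM against 796 and 791, a log2 fold of 0.00 with overlapping genotypes. Atp5h shares 485 bases at 99.0% identity with the pseudogene Gm10250, itself lower in Id1-/- (log2 -0.55, edgeR adjusted p = 0.0214), and Atp5g1 shares 411 bases with Gm10039, which was not called (log2 -0.11).

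**Figure D2:**
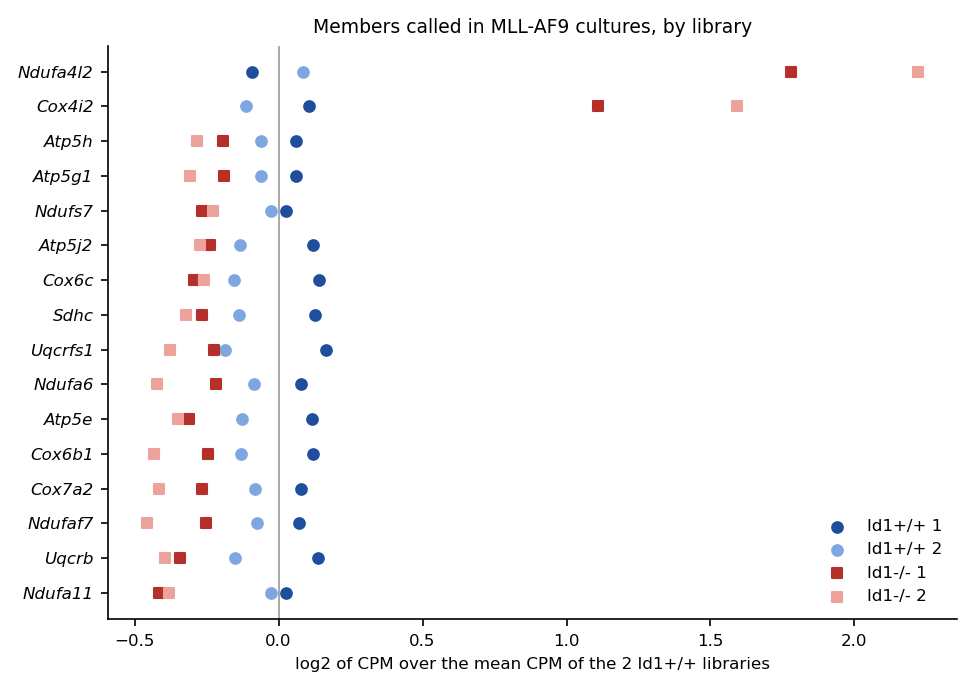
The 16 members called in MLL-AF9 cultures, each library plotted as log2 of its CPM over the mean CPM of the 2 Id1+/+ libraries (x axis). Blue circles are Id1+/+ and red squares Id1-/- libraries. In the 14 lower members the Id1-/- squares lie within about a log2 unit below 0 and Id1+/+ replicate 1 is always the highest, and in Ndufa4l2 and Cox4i2 both squares lie far to the right.

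The wider mitochondrial programme did not move as 1 block in MLL-AF9. The proteins of the mitochondrial ribosome, which translates the mitochondrially encoded subunits, had 13 of 79 lower and 69 of 79 with a negative fold, and a median of -0.17 close to that of the members. Mrps15 was at 58.1 ± 6.00 CPM in Id1+/+ and 44.0 ± 0.456 in Id1-/- (log2 -0.40, n = 2, edgeR adjusted p = 0.0054), and Mrpl44 at 34.6 ± 3.71 and 25.2 ± 3.13 (log2 -0.45, n = 2, edgeR adjusted p = 0.0080). Cytosolic ribosomal proteins, also short abundant transcripts, had 2 of 88 lower, 2 higher and a median of -0.05. Of the tricarboxylic acid cycle and its feeders 18 of 19 were not called, the median was 0.01, and the exception was Pcx, pyruvate carboxylase, from 4.27 ± 0.286 to 8.89 ± 0.240 CPM (n = 2, log2 1.06, edgeR adjusted p = 0.000393).

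Factors that build or feed the chain gave few calls, in both directions. Of 18 assembly factors of complex IV, Cox19 was lower (log2 -0.32), and 15 of 18 had a negative fold (median -0.13). Of 13 of complexes II, III and V, Ttc19, which clears fragments of the Rieske protein, was higher (0.39). Of those 13, 9 had a negative fold (median -0.14). The medians of these 2 lists were thus close to that of the members. Cytochrome c (Cycs) was not called (log2 -0.18, edgeR adjusted p = 0.113), nor was cytochrome c1. Of 17 regulators of mitochondrial biogenesis and mitochondrial DNA transcription, the coactivators Ppargc1b (log2 1.56) and Pprc1 (0.27) were higher and the other 15 were not called. Their median was 0.01. Among 12 carriers and channels, the phosphate carrier Slc25a3 (-0.32) and the channel Vdac2 (-0.25) were lower and the ADP/ATP carrier Slc25a4 (0.32) was higher. Of those 12, 11 had a negative fold (median -0.10). Of 15 import and cristae genes (median -0.01), the chaperonins Hspd1 (0.51) and Hspe1 (0.39) were higher and Immt, which shapes cristae, was lower (-0.23).

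Marker lists moved over the same libraries. Of 12 mesenchymal markers 9 were higher and 1 was lower (Cxcl12). Among 12 macrophage markers 7 were lower and 2 higher. The neutrophil list had 7 of 8 lower. Neutrophil markers made up 0.0313% and 0.0261% of counts in Id1+/+ and 0.0166% and 0.0162% in Id1-/-. The part of a changed cell mix in the members' values was not tested. In AE9a the mesenchymal list had 9 of 10 markers past 1.5-fold higher and the macrophage list 2 of 12 lower and 2 higher. The neutrophil list had 5 of 6 higher there (median log2 1.48) and the erythroid list 4 of 4 (median 2.08). Of 5 striated muscle markers, Myh6, Myh7 and Ckm had 0 counts in both AE9a libraries, Actn2 had 0 and 2, and Tnnt2 had 9 and 6.

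AE9a cultures gave 1 library per genotype, so their values have no replicate check and no test, and intervals are exact 95% binomial ones that cover counting error only. Of 120 member rows 99 were kept at 10 or more counts over both libraries and a mean of 1 CPM or more. Past 1.5-fold, 2 members were lower and 2 higher, against a background of 7.7% of 12720 genes lower and 17.2% higher. Nuclear members had a median log2 ratio of -0.10 against -0.01 over all genes, and 60 of 87 were negative. With library totals in place of TMM the nuclear median was 0.09 while that of all genes was 0.19, and 1 member was past the fold lower and 5 higher, against 456 and 2933 of all genes. Relative to all genes the nuclear median was -0.10 under either scaling.

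The 2 members past 1.5-fold lower were small membrane subunits. Ndufa1, an X-linked accessory subunit of complex I, had 770 counts in Id1+/+ and 422 in Id1-/-, a log2 ratio of -0.85 (interval -1.03 to -0.68). Atp5l, the g subunit of ATP synthase, had 519 and 314 counts (log2 -0.71, interval -0.92 to -0.51). A gene with a near-identical transcript, Gm10221, had 458 and 369 counts, and the sum of both was 977 and 683 (log2 -0.50). Summed with this copy, Atp5l did not reach 1.5-fold.

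The 2 past the fold in the other direction rested on few counts. Atp5o, the stalk subunit that confers oligomycin sensitivity, had 18 and 28 counts (log2 0.60, interval -0.26 to 1.59), and mt-Nd4l had 21 and 34 (log2 0.66, interval -0.12 to 1.57). Both intervals cover 0. Another AE9a row named Atp5o had 0 counts in both libraries. In the MLL-AF9 libraries Atp5o had 873 to 1144 counts. In the GENCODE vM21 entry taken for this name (chromosome 16, 91684398 to 91926982), all exon bases lie within exons of Donson on the same strand. The RefSeq promoter window of Atp5o starts at 91931581, outside that entry, so the overlap describes this entry only. The 2 tables thus differ widely in the counts listed under this name, and the part of the shared exons in that was not tested.

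By complex, most AE9a medians were negative under TMM scaling, whereas with library totals 32 of the 87 nuclear members were negative. All 11 complex IV members kept were negative (median -0.12), with Cox7a2l at 4280 and 3085 counts (log2 -0.46) and Cox4i1 at 4334 and 3511 (-0.29). All 4 complex II genes were negative as well, Sdha at 5312 and 4324 counts (-0.28), Sdhb at 1635 and 1547 (-0.07), Sdhc at 2156 and 1653 (-0.37) and Sdhd at 1928 and 1670 (-0.19). Complex III had a median of -0.22, ATP synthase -0.08 and complex I subunits -0.10. Complex I assembly factors had a positive median of 0.14, with 6 of 8 positive, against -0.17 in MLL-AF9. The mitochondrial ribosome list had a median of 0.08 in AE9a against -0.01 for all genes and -0.17 in MLL-AF9, a difference that was not tested for the list.

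The rare isoforms were again at low counts in AE9a. Ndufa4l2 had 5 and 7 counts and Cox4i2 3 and 8, too few to give a ratio beyond counting error. Cox6a2 had 32 counts in Id1+/+ and 6 in Id1-/- and Cox7a1 25 and 9, against 3291 and 3104 for Cox6a1 and 1008 and 997 for Cox7a2. Cox6a2 and Cox7a1 were under the minimum mean of 1 CPM over both libraries, so they were not counted among members past the fold. Their log2 counting intervals lay below 0 (-3.95 to -1.12 and -2.75 to -0.31). Cox7b2, Cox8b and Cox8c had 0 counts in both libraries, which allows up to 3 counts, or 0.153 CPM in Id1+/+ and 0.155 in Id1-/-.

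Of the 14 members lower in MLL-AF9, all kept in AE9a, 10 had a negative and 4 a positive AE9a ratio. That share was close to the 69.0% (60 of 87) of all nuclear members that were negative in AE9a. These signs are those under TMM scaling, and fewer members were negative with library totals. The 4 with a positive ratio were Atp5g1 (log2 0.32), Ndufa11 at 126 and 129 counts (0.05), Ndufaf7 at 220 and 262 (0.26) and Atp5j2 at 1715 and 1757 (0.05). Uqcrb, at 590 and 484 (-0.27), Uqcrfs1, at 1731 and 1422 (-0.27), and Atp5e, at 1587 and 1343 (-0.23), were lower in both. Over 85 nuclear members with a value in both models, 58 were negative in both and 3 positive in both. A further 22 were negative in MLL-AF9 alone and 2 in AE9a alone. With 86.7% of members negative in MLL-AF9 and 69.0% in AE9a, many joint negatives are given by those shares alone. Atp5o and Atp5pb, the latter named Atp5f1 in AE9a, were left out. Both were negative in MLL-AF9 (log2 -0.15 and -0.21) and positive in AE9a (0.60 and 0.06). The fold changes correlated weakly across the 85 genes (Pearson r = 0.10, Spearman rho = 0.09), which share libraries and are not independent.

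**Figure D3:**
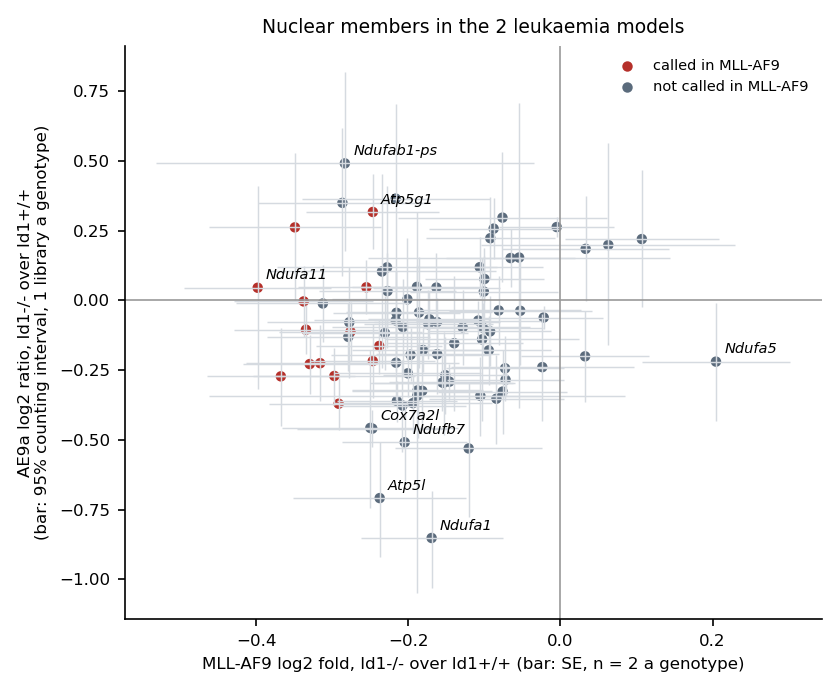
Log2 fold of Id1-/- over Id1+/+ in MLL-AF9 (x axis, bars are SE, n = 2 libraries per genotype) against the log2 ratio in AE9a (y axis, bars are 95% counting intervals, 1 library per genotype) for nuclear members measured in both. Red points were called in MLL-AF9. Atp5o and Atp5pb (Atp5f1 in AE9a) are not plotted. Most of the 85 points, 58, lie in the lower left quadrant with no visible slope, and Ndufa1 and Atp5l lie lowest.

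Whether the genotype effect differed between the models was tested in 1 joint edgeR fit, which assumes that the lone AE9a libraries vary like the MLL-AF9 ones. It called 1 of 94 members, against 10.3% of 15086 genes, and before adjustment 14 members were under 0.05, as were 3790 of all genes. The member was Ndufa1, whose MLL-AF9 levels were 55.5 and 64.1 CPM in the Id1+/+ libraries against 52.8 and 53.6 in Id1-/- (log2 -0.17, edgeR adjusted p = 0.193). The log2 difference between the effects was -0.78, lower in AE9a (SE 0.18, edgeR adjusted p = 0.0116). The call was lost with library totals (log2 -0.57, edgeR adjusted p = 0.0790), where Atp5g1 was called instead. Tables and leukaemia models coincide, so a difference between models and one between tables cannot be told apart.

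Mitochondrially encoded genes were listed in the AE9a table alone, and there they ran opposite to the nuclear ones relative to all genes. They made up 3.75% of counts in Id1+/+ and 5.37% in Id1-/-, where nuclear members made up 0.574% and 0.615%. Of 12 kept, 11 had a positive log2 ratio, with a median of 0.26 against -0.01 for all genes, and 8 of 12 had an interval above 0. The median was 0.46 with library totals and stayed 0.27 above that of all genes under both scalings. The 2 mitochondrial ribosomal RNAs went further in the same direction, mt-Rnr1 from 3600 to 5960 counts (log2 0.74) and mt-Rnr2 from 7576 to 11135 (0.57). With 1 library per genotype, the spread of such shares between cultures is unknown, and the part of RNA selection or quality was not tested.

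Complex I subunits encoded in the mitochondrion ranged widely. The log2 ratio was 0.46 for mt-Nd5 (91359 and 124874 counts), 0.42 for mt-Nd2 (66163 and 87521), 0.26 for mt-Nd4 (55138 and 65448) and 0.24 for mt-Nd1 (77580 and 90599). For mt-Nd6, the subunit read from the other strand, it was 0.03 (19509 and 19707), with an interval that covers 0 and ends at 0.06, below those of the other 4. For mt-Nd3 it was -0.10 on 39 and 36 counts. The 4 abundant subunits read from the common strand were thus all higher in Id1-/-.

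The other complexes showed the same sign. Of the catalytic core of complex IV, mt-Co1 had 360394 and 447759 counts (log2 0.33), mt-Co2 959 and 1120 (0.24) and mt-Co3 428 and 540 (0.35). Cytochrome b of complex III, mt-Cytb, had 112708 and 133621 counts (0.26). Of ATP synthase, mt-Atp6 had 335 and 361 counts (0.12, interval -0.10 to 0.34), and mt-Atp8, which overlaps mt-Atp6 in the genome, had 0 in both. mt-Co1 and mt-Co2 belong to 1 enzyme in equal parts, yet per kilobase of exon they stood at 11929 and 71.7 CPM in Id1+/+.

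Low counts went with copies in the nuclear genome, and the first 60 bases of 2 pairs are shown because both names of a pair can match the same read. A stretch of chromosome 1 (24611535 to 24616197, minus strand) holds annotated copies of 7 mitochondrially encoded members. The sequences are from GENCODE vM21 transcripts of GRCm38, counted from 1 at the first base of the mitochondrial transcript, and capitals mark the position at which a pair differs. In mt-Co2 and Gm28661 there is no difference over 681 bases. In mt-Nd3 and Gm28438 there is 1 in 345 bases, T3C, with the mitochondrial base first.
mt-Co2: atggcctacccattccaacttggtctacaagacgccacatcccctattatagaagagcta
Gm28661: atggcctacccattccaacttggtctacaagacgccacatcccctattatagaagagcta
mt-Nd3: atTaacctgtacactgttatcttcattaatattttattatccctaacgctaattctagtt
Gm28438: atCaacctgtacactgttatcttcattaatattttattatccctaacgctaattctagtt

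Whole-length copies exist for mt-Co2, mt-Atp6, mt-Co3, mt-Nd3 and mt-Nd4l, at 99.7% to 100% identity. Those 5 members had 21 to 1120 counts per library. The members with a partial copy, mt-Co1 (31.3% of the transcript) and mt-Nd4 (63.6%), and those with no annotated copy apart from mt-Atp8 had 19509 to 447759. Copies outside annotated transcripts were not sought, for mt-Atp8 or any other member. The copies themselves were counted too, some below and some above their partners. Gm28661 had 399 and 418 beside 959 and 1120 for mt-Co2, and Gm28438 had 44 and 84 beside 39 and 36 for mt-Nd3. The counts of these 5 members are therefore uncertain, and how the counting treated reads with several matches was not given in the sources used here. The copies are listed in the MLL-AF9 table too, at 0.0048%, 0.0050%, 0.0058% and 0.0042% of counts in Id1+/+ replicates 1 and 2 and Id1-/- replicates 1 and 2. Their edgeR adjusted p there ran from 0.179 for Gm10925 to 0.924 for Gm28661.

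**Figure D4:**
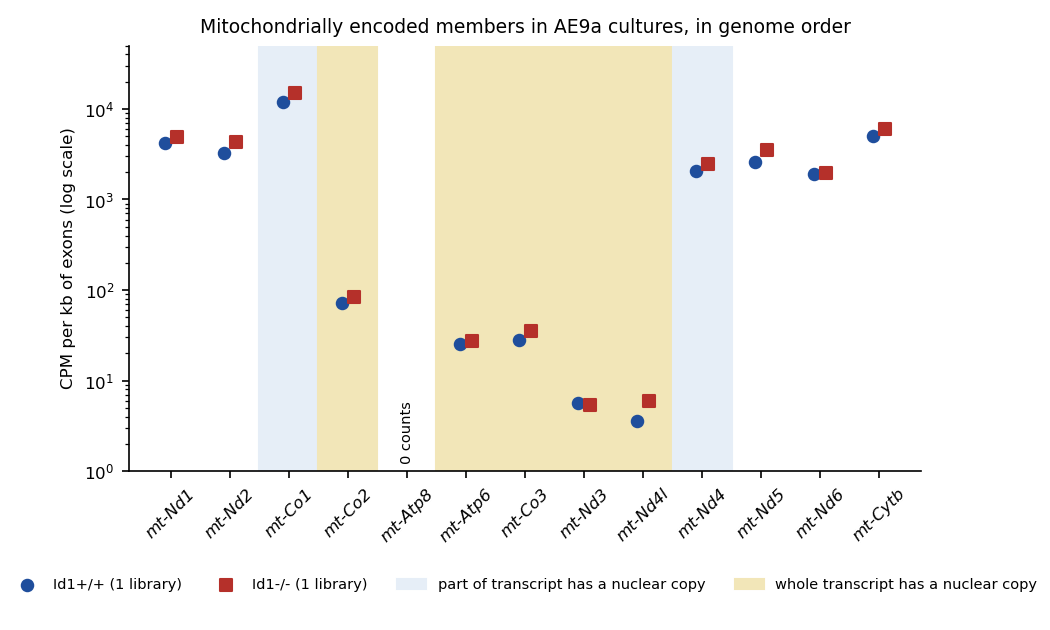
Levels of the 13 mitochondrially encoded members in AE9a cultures in CPM per kilobase of exon (y axis, log scale), in genome order (x axis). Blue circles are the Id1+/+ and red squares the Id1-/- library. Members on the yellow background (whole-length nuclear copies) lie at 84.5 or less and the rest with counts at 1922 or more, and mt-Atp8 had 0 counts.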

How the data were processed

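RNA was extracted with TRIzol, and libraries were made with a TruSeq kit for Illumina sequencing, per the labels' protocols. The authors deposited whole-number counts per gene name in 1 table per leukaemia model, without normalization. Per the submitters' processing notes, featureCounts 2.0.1, fastp 0.22.0, DESeq2 1.32.0 and HISAT2 2.2.1 were used with mm10, in roles that are not stated. The annotation release and strand setting are not given in the sources used here. The AE9a columns Id1+/+ replicate 1 and Id1-/- replicate 2 equal their partners plus a constant, hold other values than counts as deposited, and were not used. Rows with a date in place of a name (27 rows, 0.124% of Id1+/+ and 0.138% of Id1-/- AE9a counts) were left out. Members and lists were chosen with earlier results of these data known.

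The 2 MLL-AF9 genotypes were compared with edgeR 4.0.16 in R 4.3.3 (filterByExpr, TMM, two-sided quasi-likelihood test, Benjamini-Hochberg adjustment over all genes, threshold 0.05), with DESeq2 1.42.0, other scalings, no filter, the replicate block and left-out libraries as alternatives. The interaction used 1 joint fit of 6 libraries. AE9a log2 ratios used TMM and a prior count of 2 and were kept at 10 or more counts and a mean of 1 CPM. Depths of 17864812 to 22510346 counts give narrow counting intervals for most members, which reflect counting alone, as reads here carry no molecular identifiers and need not be separate molecules. Levels were compared between genes per kilobase of GENCODE vM21 exons. Copies were sought among GENCODE vM21 transcripts, not the whole genome, at 98% identity over at least 100 bases.

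Named genes are, per complex, up to 3 called members in each direction by smallest adjusted p, the Sdh genes, tissue isoforms, mitochondrially encoded members, members past the fold in AE9a or called for the interaction, and up to 2 called genes in each direction from other lists; genes named beyond this were chosen after their values were seen.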

Additional observations from a re-analysis of the deposited data

Results flagged for a closer look

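Ndufa1 drew attention because the test of the difference between leukaemia models called it: its genotype effect differed by a log2 value of -0.78 between AE9a and MLL-AF9 (joint edgeR fit, adjusted p = 0.0116, 0.0056 to 0.0790 over the alternatives). Id1-/- was lower in both models, in 2 of 2 MLL-AF9 libraries and in the lone AE9a library. Each AE9a genotype was 1 library, and models were deposited in separate tables. Groups of 2 were too small to look for samples that stand apart.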

How the results depend on the processing

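The MLL-AF9 count of members lower, 14, was the value most open to the processing. It was 1 with library totals, 33 with the replicate block, where the 16 calls of either direction all remained, and ran from 1 to 35 when a library was left out, while DESeq2 called 11 members, 10 of them shared. Replicate numbers pair nothing in the labels, and over 8874 genes same-numbered libraries deviated together with r = 0.20, in 2 pairs that mirror each other. Members higher were 1 with DESeq2 and 1 to 2 without a library, and members called for the interaction 1 to 4. The members' median log2 fold was -0.060 with library totals and -0.23 to -0.11 without a library (-0.23 to -0.10 relative to all genes), negative in each alternative run. AE9a members lower past the fold numbered 1 with library totals, 1 with totals without mitochondrial rows, 4 with no filter and 0 at 2-fold. Members higher numbered 5, 6, 6 and 0. Counts over all genes are given above for library totals alone, so these other counts have no background here. The nuclear AE9a median turned positive with library totals (0.093) and with totals without mitochondrial rows (0.12), leaving 32 and 29 members negative, and the mitochondrially encoded median was 0.46 and 0.48. Relative to all genes both AE9a medians kept their sign in every alternative run. DESeq2 size factors, a prior count of 0.5 and, in MLL-AF9, no filter kept every one of these counts within 1.5 times. Cox4i2 rested on 12 to 33 counts per MLL-AF9 library. The causes of these shifts were not tested.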
